A study of Mus musculus with 8 samples.

Results

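The 40 genes described here encode proteins of the cell cycle, 18 of which act in DNA replication and S phase and 22 in mitosis. Each was read from the array probes whose accession maps to its symbol. The probe with the highest mean signal over all arrays was used, a rule that takes no difference between groups. The list of genes itself was chosen with earlier results of these data known. Of the 40 genes, 34 were bright enough to test, which asked that both arrays of 1 or more groups read them well above background: all 18 S phase genes and 16 of the 22 mitosis genes. They are 34 of 27171 genes and unnamed transcripts tested, 16076 of them with a symbol.

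All samples were hippocampal total RNA of male C57BL/6J mice, obtained at 11 weeks of age and housed singly, on 1 slide of 8 Agilent 60-mer arrays. The groups were AX+ME, mice that ran on a treadmill at mild intensity and ate an astaxanthin diet; AX, sedentary mice on the astaxanthin diet; ME, mice that ran at mild intensity on a placebo diet; and SED, sedentary mice on the placebo diet. Astaxanthin, a red carotenoid pigment from the alga Haematococcus pluvialis, made up 2% of a powder that was mixed into chow at 0.5% by weight. None of the mice carried a transgene or deletion named in the labels, and how long they ran or ate the diet is not stated there. Each group had 8 mice, per the design text, and 2 samples, with Cy3 as the dye of replicate 1 and Cy5 as that of replicate 2. How 8 mice became 2 samples is not stated, and nothing says that the 2 samples come from separate animals, so the p-values rest on a sample-to-sample spread that can be a technical one.

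A cell that enters division first activates E2F transcription factors, which switch on the genes for origin licensing, nucleotide supply and the replication fork. Later, in G2 and mitosis, another wave of genes is transcribed, for cyclin B and its kinase, the spindle motors, the spindle checkpoint and the proteins that separate the daughter cells. In the adult hippocampus most cells are postmitotic neurons, and division is known mainly from the neural progenitors under the granule cell layer of the dentate gyrus, from oligodendrocyte precursors and from a small number of glial and vascular cells. Many replication proteins also serve DNA repair and are made outside the cycle.

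Levels below are relative signals, the array's processed intensity of the sample's own dye divided by that array's 75th percentile over all non-control spots. They compare one probe between samples and say nothing about one gene against another. Differences are on the log2 scale from a limma model with a term for dye, and adjusted p is Benjamini-Hochberg over all 27171 features, with a threshold of 0.05. The share of spots well above background was 63.2 to 76.2% per array, and the number of arrays limits the precision. All 12 markers of hippocampal neurons were well above background on all 8 arrays. Both SED arrays carried dim areas at low array columns: 720 single-spot probes were 0.8 or more below the other groups there in each dye, and 97.2% of them lay below column 70, where 41.8% of all such probes lie. For this reason 25 genes that have a tested probe at column 70 or higher (14 S phase and 11 mitosis) were also read on their own, with the probe choice, fit and adjustment redone on those spots.

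In each comparison against SED a small number of the cell cycle genes passed the test. In AX+ME against SED, the ubiquitin ligase receptor gene Dtl and the licensing factor gene Cdc6 fell, and the ribonucleotide reductase subunit gene Rrm1 and the cytokinesis motor gene Kif23 rose, which makes 4 of 34 genes where 7.04% of all features passed. In AX against SED, Dtl fell and Kif23 rose, 2 of 34 genes beside 3.57% of all features. In ME against SED, Dtl fell and Kif23 rose as well, 2 of 34 beside 2.98% of all features. These 3 comparisons share the 2 SED samples, so their calls are not separate evidence. Kif23 entered the test through AX+ME alone, where it is high, so its place in these counts supports nothing. Cdc6 entered through AX and ME alone, and was well above background on 1 array each of AX+ME and SED. From column 70 on, none of the 25 genes passed in limma's fit against SED in any of the 3 comparisons, Dtl among them with its differences unchanged, beside 0.0225% of the features there for AX+ME and 0% for AX and for ME. Lower than SED at an unadjusted p under 0.05 were 8 of these 25 genes in AX+ME, 9 in AX and 8 in ME, beside 20.7%, 17.2% and 17.1% of the features there. The calls also rested on having both samples of the AX+ME, AX and ME groups. Without any 1 of the 6 AX+ME, AX and ME samples the calls against SED were lost, here and over all features. They became more numerous without SED replicate 1. Over all features they did so without SED replicate 2 as well as without SED replicate 1. Over the fits without 1 sample, the Dtl difference from SED was -0.69 to -0.64 in AX+ME, -0.86 to -0.85 in AX and -0.74 to -0.71 in ME.

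Dtl had the smallest adjusted p against SED of the genes outside the dim columns, in each of the 3 comparisons. Its protein is the substrate receptor of a ubiquitin ligase that marks the licensing factor Cdt1 for destruction once replication has begun. Relative signal was 0.125 and 0.123 in AX+ME, 0.107 and 0.110 in AX, 0.117 and 0.121 in ME, and 0.195 and 0.198 in SED. Both SED samples were the highest, no other sample came near them, and the 2 samples of each group lay close together. The difference from SED was -0.66 in AX+ME (SE 0.051, adjusted p = 0.0145), -0.86 in AX (SE 0.051, adjusted p = 0.0117) and -0.72 in ME (SE 0.051, adjusted p = 0.0134), or 1.58-fold, 1.81-fold and 1.65-fold lower. Its only probe lies at column 148. There, 50 neighbouring spots within 6 rows and 3 columns had a median difference of SED from the mean of the other groups of 0.058 in Cy3 and 0.107 in Cy5, while the Dtl spot had 0.748 and 0.749, above the 90th percentile of those neighbours in both dyes. The fit from column 70 on reads the same spot and gives the same 3 differences, with an adjusted p of 0.051 for AX+ME, 0.0838 for AX and 0.0766 for ME, so that a call is lost there with no change in the size. In bulk tissue, fewer cells that express a gene and less RNA of it per cell cannot be told apart.

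Kif23 stood on the other side. It encodes a kinesin of the central spindle that is needed for the last step of cell division. Relative signal was 0.0239 and 0.0237 in AX+ME, 0.0232 and 0.0215 in AX, 0.0247 and 0.0181 in ME, and 0.00713 and 0.00574 in SED. Both SED samples were the lowest and did not overlap with any other group. The spot was well above background on both AX+ME arrays, on 1 AX array, on 1 ME array and on no SED array, so the gene entered the test through AX+ME alone. Its level was at least 1.77-fold higher in AX+ME, 1.66-fold in AX and 1.57-fold in ME than in SED, with fitted differences of 1.90 (adjusted p = 0.0111), 1.81 (adjusted p = 0.0133) and 1.73 (adjusted p = 0.0137) that depend on the dim SED values. With the normexp background correction in place of the scanner's own, the differences were 0.38 in AX+ME (adjusted p = 0.0657), 0.30 in AX (adjusted p = 0.125) and 0.30 in ME (adjusted p = 0.125), and none passed. The Kif23 spot lies at column 38, inside the dim area, and the part of that area in the result was not tested. Its 46 neighbouring spots had a median SED difference of 0.17 in Cy3 and 0.076 in Cy5, against -1.75 and -1.87 for Kif23 itself, and 1 in 10 of those neighbours was at or below -0.87 in Cy3 and -0.79 in Cy5.

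Rrm1 and Cdc6, the other genes that passed, also have their probes below column 70. Rrm1, the large subunit of the enzyme that makes deoxyribonucleotides, had a relative signal of 0.928 and 0.850 in AX+ME, 0.867 and 0.847 in AX, 0.906 and 0.873 in ME, and 0.593 and 0.648 in SED. The SED samples were again the lowest 2, without overlap. It rose by 0.52 in AX+ME (SE 0.078, adjusted p = 0.0410), or 1.43-fold, while 0.47 in AX (adjusted p = 0.0551) and 0.52 in ME (adjusted p = 0.0523) did not pass. With no filter on dim probes the AX+ME difference is the same and the call is lost (adjusted p = 0.0511). The spot lies at column 63, inside the dim area, and its 47 neighbours had a median SED difference of -0.15 in Cy3 and -0.072 in Cy5 beside -0.60 and -0.40 for Rrm1, which is within the 10th to 90th percentile of those neighbours in both dyes. Rrm2, the small subunit, was read at column 79 and had differences of -0.18 in AX+ME, -0.22 in AX and -0.15 in ME, none of them past the test.

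Cdc6 loads the MCM helicase onto origins of replication together with Cdt1. Relative signal was 0.0275 and 0.0204 in AX+ME, 0.0367 and 0.0288 in AX, 0.0401 and 0.0294 in ME, and 0.0336 and 0.0259 in SED. Within each dye AX+ME was the lowest, but the 2 dyes differ so much that the raw values of AX+ME and SED overlap. The difference of AX+ME from SED was -0.32 (SE 0.055, adjusted p = 0.0482), at a probe in column 42 with a signal well above background on 6 of 8 arrays. Those were 2 of AX, 2 of ME, 1 of AX+ME and 1 of SED, so the gene entered the test only through AX and ME, where it is high. Another Cdc6 probe, at column 109, gave 0.07 for AX+ME against SED, with 0.0272 and 0.0185 in AX+ME beside 0.0225 and 0.0202 in SED. The fall in Cdc6 was therefore not seen at the probe outside the dim columns, and the call was lost without the dye term (adjusted p = 0.479). It was also lost with the normexp background correction, at -0.03 (adjusted p = 0.84), and with the mean of the gene's probes, at -0.12 (adjusted p = 0.573).

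Plots of relative signal by sample show these 4 genes beside 8 others whose values are given below.

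**Figure D1:**
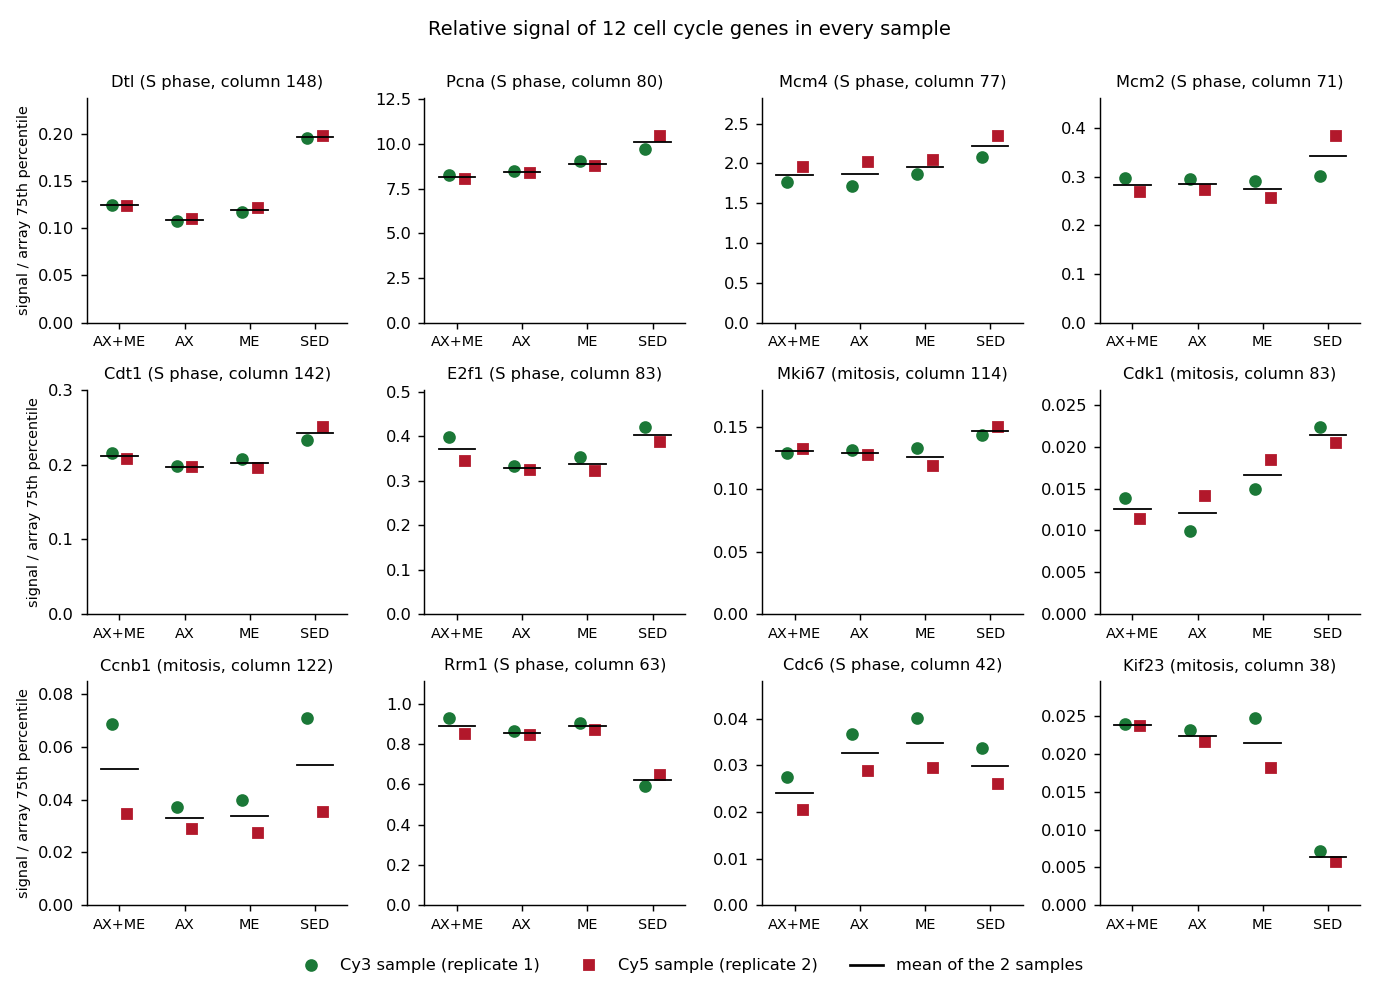
Relative signal (processed intensity over the array's 75th percentile, linear axis from 0) of 12 cell cycle genes, with groups in the order AX+ME, AX, ME and SED. Circles are the Cy3 samples, squares the Cy5 samples and bars the mean of the 2. Dtl stood at 0.195 and 0.198 in SED, above every other sample, whereas Kif23 and Rrm1 were lowest in SED.

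Beyond Dtl, the genes of origin licensing and the replication fork lay mostly a little below their SED level, by differences that did not pass the test. Of the 18 S phase genes, 14 were lower than SED on average in AX+ME, 13 in AX and 15 in ME. Their median difference was -0.19, -0.13 and -0.16 in these groups, beside -0.03, -0.04 and -0.05 over all features tested. From column 70 on the medians of 14 S phase genes were -0.18, -0.19 and -0.16, beside -0.04, -0.05 and -0.05 over all 17770 features there. Of all features, 55.7%, 57.7% and 60.8% were also lower than SED on average. S phase genes were at an unadjusted p under 0.05 and lower in 7, 6 and 5 cases of 18, beside 18.8%, 16.5% and 16.3% of all features. Spots just past column 70 were in general higher in SED. The column median of SED minus the other groups was 0.17 at column 71, 0.15 at 77 and 0.12 at 80. It was 0.04 at column 93 and 0.002 at column 142. Mcm2, Mcm4 and Pcna lie at columns 71, 77 and 80, and the part of position in the medians was not tested.

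Pcna, the sliding clamp that holds DNA polymerases on the template, had a relative signal of 8.26 and 8.02 in AX+ME, 8.50 and 8.36 in AX, 9.02 and 8.75 in ME, and 9.70 and 10.5 in SED. Every SED sample lay above every other sample and every AX+ME sample below all others. The difference from SED was -0.31 in AX+ME (unadjusted p = 0.00616, adjusted p = 0.0606), -0.26 in AX (adjusted p = 0.099) and -0.18 in ME (adjusted p = 0.185). Its probe lies at column 80, and its 57 neighbours had a median SED difference of 0.028 in Cy3 and 0.149 in Cy5, beside 0.176 and 0.322 for Pcna, within the 10th to 90th percentile of the neighbours. Of the 34 genes tested, Dtl and Cdk1 lay above that range of their neighbours in both dyes and Kif23 lay below it. Dtl was well above background on all 8 arrays, as the neighbours were, but Cdk1 was on 5 and Kif23 on 4. For Cdk1 and Kif23 the range is therefore that of brighter spots, and their places outside it cannot be read like that of Dtl.

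The MCM proteins form the ring-shaped helicase that opens DNA at the fork, and none of the 6 subunit genes passed the test against SED. Mcm4 had 1.76 and 1.96 in AX+ME, 1.72 and 2.02 in AX, 1.87 and 2.05 in ME, and 2.08 and 2.35 in SED. Within each dye SED was the highest, and the differences were -0.25 (adjusted p = 0.0645), -0.24 (adjusted p = 0.0837) and -0.18 (adjusted p = 0.153) for AX+ME, AX and ME. The 56 neighbours of the Mcm4 spot at column 77 were themselves higher in SED, by a median of 0.186 in Cy3 and 0.143 in Cy5 beside 0.222 and 0.225 for Mcm4. Mcm2 had 0.298 and 0.269 in AX+ME, 0.297 and 0.272 in AX, 0.292 and 0.257 in ME, and 0.302 and 0.385 in SED. Only the Cy5 sample of SED stood out there, and the spread between dyes left all 3 differences short of the threshold (adjusted p = 0.296, 0.338 and 0.286). In Cy5 its neighbours at column 71 also had a median of 0.325 higher in SED. Mcm5, whose probe lies at column 4, had 0.459 and 0.495 in AX+ME, 0.460 and 0.457 in AX, 0.426 and 0.431 in ME, and 0.422 and 0.491 in SED, so that its groups overlapped. The other 3 subunit genes showed differences from SED between -0.17 and -0.01 for Mcm6, between -0.07 and -0.03 for Mcm3 and within 0.02 of 0 for Mcm7. For Mcm6 the -0.17 was in AX+ME, with an adjusted p of 0.118.

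Cdt1, the licensing factor that the Dtl ligase removes, had 0.216 and 0.207 in AX+ME, 0.198 and 0.196 in AX, 0.208 and 0.195 in ME, and 0.233 and 0.250 in SED. SED was again highest without overlap, and the difference from it was -0.19 in AX+ME (adjusted p = 0.141), -0.29 in AX (adjusted p = 0.0895) and -0.26 in ME (adjusted p = 0.117). E2f1, the activator of S phase genes, had 0.398 and 0.345 in AX+ME, 0.332 and 0.324 in AX, 0.353 and 0.321 in ME, and 0.421 and 0.387 in SED. The AX and ME samples lay below both SED samples, while 1 AX+ME sample fell between them. Its differences were -0.12 in AX+ME (adjusted p = 0.245), -0.30 in AX (adjusted p = 0.0756) and -0.26 in ME (adjusted p = 0.102). Gins1, a subunit of the helicase complex at the fork, was -0.23 in AX+ME (adjusted p = 0.0856), -0.17 in AX and -0.12 in ME, whereas its partner Gins2 was 0.12, 0.10 and 0.22 in AX+ME, AX and ME and lowest in SED. Cdc45, another part of that complex, was 0.18 in AX+ME and -0.05 and -0.16 in AX and ME, and none of these values passed. Tyms, which makes thymidylate, and Uhrf1, which guides DNA methylation behind the fork, have probes at columns 19 and 16. Tyms had 0.323 in the Cy5 sample of SED beside 0.169 to 0.190 in the other 7 samples.

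Of the mitosis genes, Kif23 alone passed against SED. Of the 16 tested, 12 were lower than SED on average in AX+ME, 10 in AX and 11 in ME, with medians of -0.03, -0.12 and -0.10. The medians of the 11 from column 70 on were -0.04 in AX+ME, -0.16 in AX and -0.09 in ME. Those at an unadjusted p under 0.05 and lower numbered 2, 4 and 4 of 16, beside the shares of 18.8%, 16.5% and 16.3% of all features given above. Cdk1 and Kif11 entered the test only through their SED arrays and Kif23 only through AX+ME. The filter could thus favour a difference in such genes, although Kif11 was -0.04, -0.18 and 0.19 in AX+ME, AX and ME. The medians over the genes tested therefore describe those genes and support nothing.

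Mki67, whose protein coats the chromosomes of cycling cells and is the usual marker of proliferation, had 0.129 and 0.132 in AX+ME, 0.131 and 0.127 in AX, 0.133 and 0.118 in ME, and 0.144 and 0.150 in SED. Both SED samples were the highest, by a small margin. The difference was -0.17 in AX+ME (adjusted p = 0.214), -0.18 in AX (adjusted p = 0.221) and -0.23 in ME (adjusted p = 0.177). Another Mki67 probe, at column 68, had 0.0644 and 0.0613 in AX+ME, 0.0667 and 0.0663 in AX, 0.0676 and 0.0656 in ME, and 0.0840 and 0.0882 in SED, and its differences were -0.45 in AX+ME, -0.37 in AX and -0.37 in ME. Both probes thus put SED highest in every sample, and by different amounts.

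Cyclin B and its kinase drive entry into mitosis. Cdk1 had 0.0138 and 0.0114 in AX+ME, 0.00995 and 0.0141 in AX, 0.0149 and 0.0184 in ME, and 0.0224 and 0.0205 in SED. SED was highest without overlap, and the differences were -0.77 in AX+ME (SE 0.22, adjusted p = 0.0954), -0.85 in AX (adjusted p = 0.102) and -0.37 in ME (adjusted p = 0.364). The signal was well above background on both SED arrays and on 1 array in each of the other groups, so most of the low values are near the limit of what the arrays could read. Ccnb1, cyclin B1, had 0.0686 and 0.0344 in AX+ME, 0.0372 and 0.0290 in AX, 0.0399 and 0.0274 in ME, and 0.0707 and 0.0352 in SED. Within each dye AX+ME lay just below SED and AX and ME lay lower, with differences of -0.04 in AX+ME (adjusted p = 0.908), -0.60 in AX (adjusted p = 0.148) and -0.59 in ME (adjusted p = 0.166). The cyclin B2 gene Ccnb2 lay within 0.09 of SED in all 3 groups. Ccna2, cyclin A2, was -0.24 in AX+ME (adjusted p = 0.218), -0.37 in AX (adjusted p = 0.133) and -0.44 in ME (adjusted p = 0.115), at column 67, and did not pass.

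Among the remaining mitosis genes, Birc5, a subunit of the chromosomal passenger complex also known as survivin, had 0.271 and 0.276 in AX+ME, 0.268 and 0.264 in AX, 0.284 and 0.277 in ME, and 0.304 and 0.351 in SED. Its difference from SED was -0.26 in AX+ME (adjusted p = 0.115), -0.29 in AX (adjusted p = 0.116) and -0.22 in ME (adjusted p = 0.198). Aurka and Plk1, kinases of the centrosome and spindle, Bub1b of the spindle checkpoint, Cdc20, the activator of the anaphase-promoting complex, Tpx2, a spindle assembly factor, Ube2c, the ubiquitin-conjugating enzyme of that complex, Cenpe, a kinetochore motor, and Kif11, the motor that separates the spindle poles, lay between -0.26 and 0.19 in all 3 comparisons. None of them passed in any comparison against SED. Kif20a, a kinesin of the central spindle, had 0.0374 and 0.270 in AX+ME, 0.0458 and 0.0641 in AX, 0.0437 and 0.0515 in ME, and 0.0395 and 0.0315 in SED. Its difference of 1.51 in AX+ME (SE 0.81, adjusted p = 0.269) rests on the Cy5 sample, since the Cy3 value of AX+ME was below that of SED.

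The 6 mitosis genes that could not be tested were dim in all groups. Top2a, the topoisomerase that untangles chromosomes, was well above background on 3 of 8 arrays, with 0.0164 and 0.00916 in AX+ME, 0.0150 and 0.00586 in AX, 0.0151 and 0.005 in ME, and 0.00908 and 0.0130 in SED, where 0.005 is the lowest level allowed here. The groups overlapped. Nusap1, a spindle protein, was well above background on 4 arrays, 1 in each group. Melk, a kinase, Aurkb, the kinase of the passenger complex, and Cenpf, a kinetochore protein, were not well above background on any array, nor was Bub1, a spindle checkpoint kinase, over the mean of its spots. The 10 spots of the Bub1 probe gave, on the Cy5 array of ME, a median of 0.00114 and a highest spot of 0.375.

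**Figure D2:**
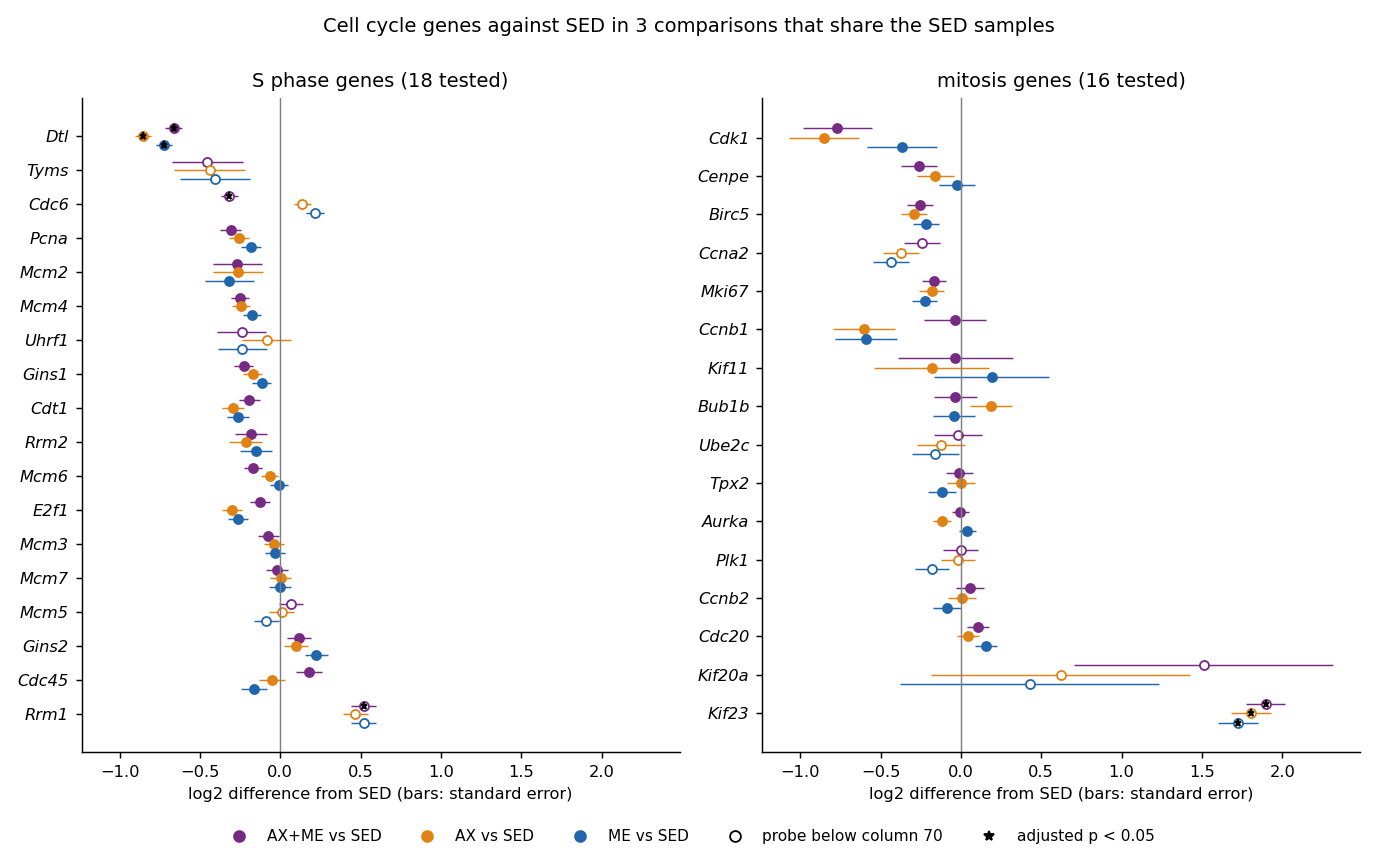
Log2 difference from SED of the 18 S phase genes (left) and the 16 mitosis genes tested (right), for AX+ME, AX and ME, with standard errors from limma. Open circles have their probe below column 70 and stars mark an adjusted p below 0.05. Most genes lie a little left of 0, and the 4 with a star in any comparison are Dtl, Cdc6, Rrm1 and Kif23.

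The order of the groups was counted gene by gene. SED was the highest of the 4 groups in both dyes for 13 of 34 genes (38.2%), beside 27.2% of all features tested, and for 11 of 25 genes (44%) from column 70 on, beside 26.8%. The 13 were Cdt1, Dtl, E2f1, Gins1, Mcm2, Mcm4, Pcna and Tyms of S phase and Birc5, Ccna2, Ccnb1, Cdk1 and Mki67 of mitosis. SED was the lowest in both dyes for Gins2, Kif23 and Rrm1, 3 of 34 genes, beside 15% of all features. AX+ME was the highest in both dyes only for Cdc45, beside 10.9% of all features, and the lowest for Cdc6, Gins1, Mcm6 and Pcna, beside 8.37%. Cdk1 entered the test only through SED, Kif23 only through AX+ME and Cdc6 only through AX and ME. The filter thus favoured their orders, and their places in these counts support nothing. Mcm2, Mcm4, Pcna and Birc5 lie at columns 71 to 80, where spots in general were higher in SED. These counts were not tested, and the genes are not independent of each other.

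Of the 40 genes 8 have more than 1 probe. For Birc5, Cdk1, Tpx2 and Ube2c a probe below column 70 was higher than SED in all 3 groups while the probe used for the test was lower or nearly level, and Cdc6 is described above. For Birc5, the probe at column 62 gave 0.78, 0.55 and 0.92 in AX+ME, AX and ME against SED, where the one at column 80 gave -0.26, -0.29 and -0.22 and a dimmer one at column 128, which did not pass the filter, -0.68, -0.68 and -0.36. For Ube2c the probe at column 46 gave 1.18, 1.09 and 0.89, and the brighter one at column 1 gave -0.02, -0.13 and -0.16. For Cdk1, a probe at column 28 that did not pass the filter gave 0.79, 0.54 and 0.72, where the one at column 83 gave -0.77, -0.85 and -0.37, and another at column 136 was well above background on 1 of 8 arrays. For Tpx2 the probe at column 28 gave 2.10, 0.58 and 1.41, with 0.0388 and 0.312 in AX+ME beside 0.0412 and 0.0160 in SED, and the probe at column 124 stayed within 0.12 of SED. The direction of these 4 genes thus depended on the probe, and for Ube2c both probes lie below column 70.

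**Figure D3:**
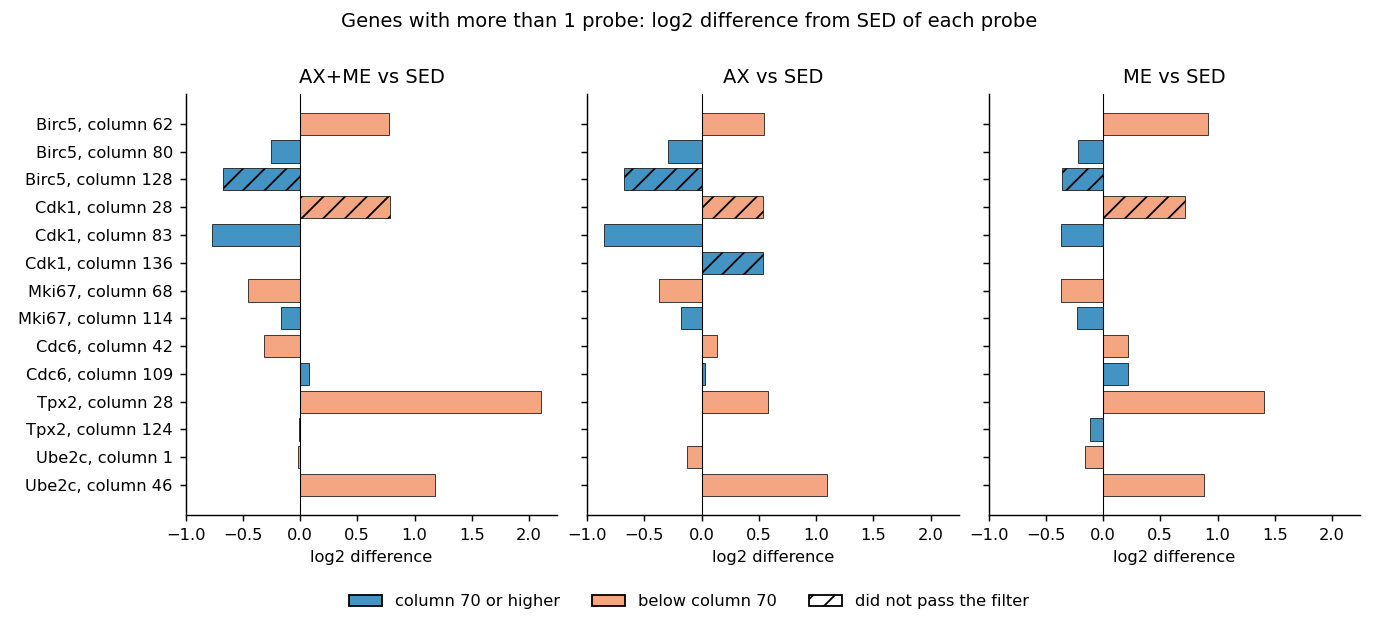
Log2 difference from SED of each probe of 6 genes with more than 1 probe, in AX+ME, AX and ME. Orange bars are probes below array column 70, blue bars probes at column 70 or higher, and hatching marks a probe that did not pass the filter. For Birc5, Cdk1, Tpx2 and Ube2c the probes disagree, while both Mki67 probes were lower than SED.

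**Figure D4:**
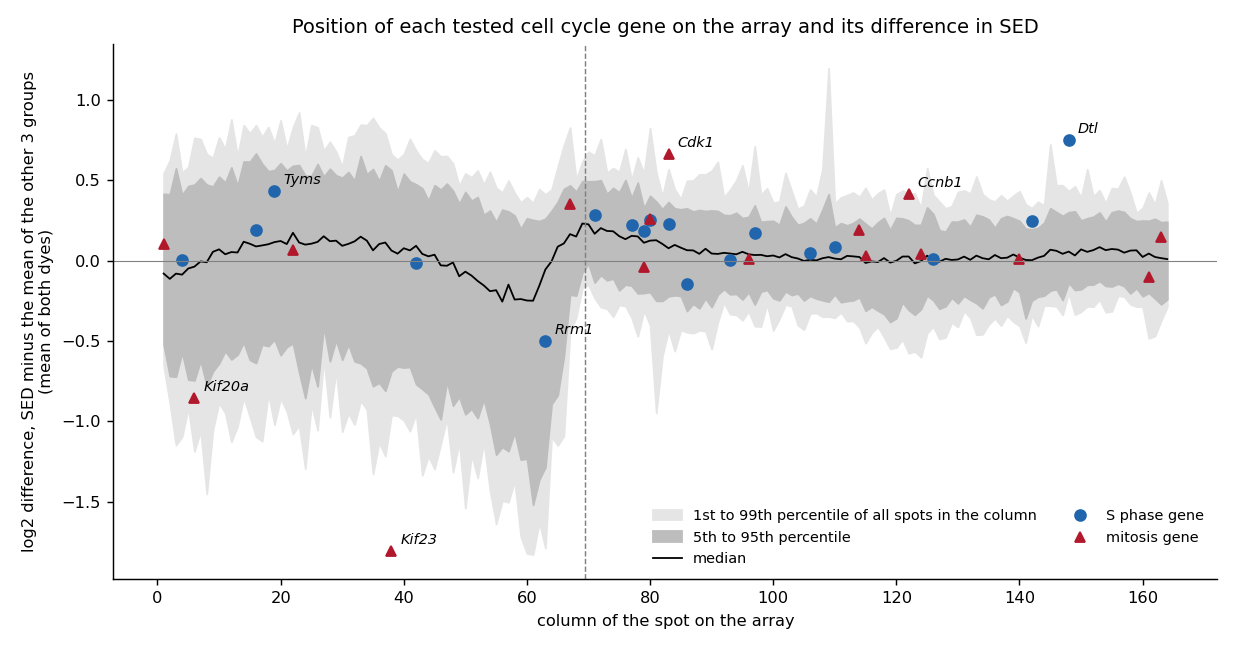
Difference of SED from the mean of the other 3 groups (log2, mean of both dyes) against the column of the spot on the array. Light grey spans the 1st to 99th and darker grey the 5th to 95th percentile of the column's spots well above background on all 8 arrays, with their median as a line; circles are the S phase genes tested and triangles the mitosis genes tested. Dtl at column 148 and Cdk1 at column 83 lie above the light band and Kif23 at column 38 lies below it, while Kif20a at column 6 and Rrm1 at column 63 lie within it.

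In the 2 comparisons without SED no cell cycle gene passed. In AX+ME against ME, which asks what astaxanthin adds to running, none of the 34 genes passed limma's test, beside 0% of all features, and 4 had an unadjusted p under 0.05, beside 8.25% of all features. Median differences were -0.03 for S phase and 0.08 for mitosis genes. Cdc6 had the smallest p, with -0.53 (SE 0.055, unadjusted p = 0.00034, adjusted p = 0.239), at its probe in the dim columns. It entered the test only through AX and ME, where it is high, so this p supports nothing. Cdc45 was 0.34 (adjusted p = 0.469), with 0.109 and 0.109 in AX+ME beside 0.0890 and 0.0828 in ME, and Ccnb1 was 0.55 (adjusted p = 0.581). For each of the 3 genes AX+ME and ME differed in the same direction in both dyes. From column 70 on none of 25 genes passed either, beside 0.0169% of the features there.

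In AX+ME against AX, which asks what running adds to astaxanthin, none of the 34 genes passed in limma either, beside 0% of all features, and 5 had an unadjusted p under 0.05, beside 5.98%. The medians were -0.005 for S phase and 0.07 for mitosis genes. Cdc6 was -0.46 (unadjusted p = 0.000673, adjusted p = 0.391) and lay below AX in both dyes. Its entry only through AX and ME, where it is high, limits this value in the same way. Dtl was 0.19 (adjusted p = 0.681), E2f1 0.17 (adjusted p = 0.809), Cdc45 0.23 (adjusted p = 0.809) and Ccnb1 0.56 (adjusted p = 0.793). The mitosis markers Mki67, Aurka and Plk1 had differences of 0.01, 0.11 and 0.02. The other Mki67 probe, at column 68, gave -0.08.

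Averaged over activity, Dtl was lower with astaxanthin, with a difference of -0.40 (SE 0.036, adjusted p = 0.0386), a call that the fit from column 70 did not make (adjusted p = 0.0821). The average joins unlike values: -0.86 in sedentary mice (AX against SED) and 0.06 in running mice (AX+ME against ME). Kif23 passed for running (adjusted p = 0.0437) and for astaxanthin (adjusted p = 0.0384), higher in both, which makes 1 of 34 genes beside 0.707% of all features for running and 2 of 34 beside 0.813% for astaxanthin. No size is given for Kif23, since neither SED array read it well above background and it entered the test through AX+ME, where it is high. Both Kif23 calls were lost with quantile normalization, with normexp, with no filter and with a floor of 0.01, and that for running also without the dye term, with adjusted p of 0.0505 to 0.222 for running and 0.0545 to 0.205 for astaxanthin over these settings. Both averages hold SED on one side, and neither gene differed past the test between AX+ME and ME or between AX+ME and AX, the comparisons without SED. Pcna was -0.12 for running (adjusted p = 0.265) and -0.19 for astaxanthin (adjusted p = 0.115), and Mki67 was -0.11 for running and -0.06 for astaxanthin.

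The interaction asks whether the effect of both treatments departs from the sum of each alone on the log2 scale. Dtl was the only one of the 34 genes to pass, beside 0.453% of all features, with an interaction of 0.92 (SE 0.072, adjusted p = 0.0472). Its difference from SED was -0.66 in AX+ME, while those of AX (-0.86) and ME (-0.72) add up to a lower value. These differences share the SED samples, so the interaction is not separate evidence from them. Kif23 had -1.63 (adjusted p = 0.0601), Cdc6 -0.67 (adjusted p = 0.0669), Ccnb1 1.16 (adjusted p = 0.207), E2f1 0.44 (adjusted p = 0.169), Rrm1 -0.47 (adjusted p = 0.206), Ccna2 0.57 (adjusted p = 0.245) and Cdt1 0.36 (adjusted p = 0.231). The same interaction of Dtl missed the threshold from column 70 on (adjusted p = 0.108) and with the mean of each gene's probes (adjusted p = 0.0534). The median was 0.14 for S phase and 0.17 for mitosis genes, beside 0.06 over all features.

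The wider machinery was read from 6 further lists of cell cycle genes, beside calls for 7.04%, 3.57% and 2.98% of all features in AX+ME, AX and ME against SED. Of 33 tested genes of 35 on the list of other replication genes, only Rfc4, a subunit of the clamp loader, passed against SED: it fell in AX+ME (-0.69, adjusted p = 0.0366) and in AX (-0.65, adjusted p = 0.0478), at column 40. That is 1 of 33 in each of these 2 comparisons, and none in ME by limma (7 at an unadjusted p under 0.05). The median of that list was -0.11, -0.10 and -0.09 in AX+ME, AX and ME against SED, beside -0.03, -0.04 and -0.05 over all features. Of 26 tested of 36 other mitosis genes, Cenpa, the centromeric histone, rose in AX+ME (1.41, adjusted p = 0.0145), AX (1.34, adjusted p = 0.0182) and ME (1.41, adjusted p = 0.0160), at column 61, and Cit, a kinase of cytokinesis that neurons also express, fell in AX (-0.69, adjusted p = 0.0433), at column 6. These are 1 of 26 genes in AX+ME, 2 in AX and 1 in ME, and the median of the list was -0.07, -0.09 and -0.06.

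The brakes and controls of the cycle are read beside the same shares of all features. Of 6 tested of 7 CDK inhibitors, Cdkn1c, a maternally expressed inhibitor of the CIP/KIP family, fell in AX+ME (-0.61, adjusted p = 0.0296) and ME (-0.57, adjusted p = 0.0397) and was -0.44 in AX (adjusted p = 0.0546), at column 29. Of 16 Rb, E2F and Myb-MuvB genes, Lin9, a core subunit of the MuvB complex, fell in AX+ME (-0.46, adjusted p = 0.0473), at column 156 and outside the dim area. It had 0.275 and 0.259 in AX+ME, 0.300 and 0.275 in AX, 0.326 and 0.355 in ME, and 0.373 and 0.361 in SED, with AX+ME lowest and SED highest in both dyes. Of 9 genes of cell cycle exit and arrest, Gadd45g, a stress and differentiation gene, fell in AX+ME (-0.38, adjusted p = 0.0413), at column 77, and Trp53, which encodes p53, rose there (0.48, adjusted p = 0.0394), at column 59. None of 7 tested of 9 G1 cyclin and kinase genes passed in any of the 8 comparisons. No gene of these 6 lists passed in the fit from column 70, where Lin9 and Gadd45g are included, in any of the 8 comparisons.

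Markers of cells that could carry these genes, or be cut with the hippocampus, were read beside them. The summed level of 7 immature neuron markers was 52.2 to 55.8 in AX+ME, 46.5 to 55.8 in AX, 47.9 to 56.7 in ME, and 70.9 to 73.7 in SED, and that of 10 stem and progenitor markers was 25.4 to 26.2 in AX+ME, 25.4 in both AX samples, 25.6 to 26.5 in ME, and 27.7 to 30.9 in SED. Microglial markers (7 genes) summed to 42.5 to 42.7 in AX+ME, 42.4 to 43.2 in AX, 45.2 to 45.5 in ME, and 48.8 to 50.0 in SED, and endothelial markers (7 genes) to 18.0 to 19.7 in AX+ME, 18.0 to 19.7 in AX, 17.6 to 19.3 in ME, and 20.8 to 22.2 in SED. All of these markers were well above background on all 8 arrays except 1 of the stem and progenitor list, and these 4 sums were higher in both SED samples than in any other, as were those of meningeal fibroblasts (8 genes), red cells (4 of 5 genes tested) and pituitary and hypothalamus (7 genes, 3 of them well above background on all arrays). Choroid plexus markers (10 genes) summed to 52.0 to 54.0 in AX+ME, 56.4 to 64.6 in AX, 50.3 to 59.6 in ME, and 55.2 to 71.7 in SED. The 6 oligodendrocyte precursor markers overlapped, with 28.4 to 29.5 in AX+ME, 28.1 to 28.2 in AX, 29.1 to 29.6 in ME, and 28.02 to 29.79 in SED. Such sums rest most on their brightest probes, and single markers did not all follow their sum. None of the 7 immature neuron markers passed in any of the 8 comparisons. Sox2, a transcription factor of neural stem cells and astrocytes, rose in AX+ME (1.14, adjusted p = 0.0111), AX (1.15, adjusted p = 0.0122) and ME (1.24, adjusted p = 0.0107), and also for running (0.62, adjusted p = 0.0397) and astaxanthin (0.53, adjusted p = 0.0432). Its relative signal was 1.14 and 1.09 in AX+ME, 1.11 and 1.12 in AX, 1.25 and 1.14 in ME, and 0.543 and 0.470 in SED, at column 49 inside the dim area. Another of the 10 stem and progenitor markers, Hes5, fell in AX+ME and AX, at column 65. Of the red cell markers, Hba-a1 (-0.76, adjusted p = 0.0460, column 20) and Alas2 (-0.48, adjusted p = 0.0382, column 39) fell in AX+ME by limma. Slc4a1 went the other way there (0.77, adjusted p = 0.0287), at column 133 and outside the dim columns. Of the 10 choroid plexus markers 7 fell in AX+ME, none in AX by limma (4 lower at an unadjusted p under 0.05) and 5 in ME. Of the 7 pituitary and hypothalamus markers, Pomc and Trh fell in all 3 comparisons, Prl, Gh and Cga fell in ME, and Oxt rose in AX (0.85, adjusted p = 0.0254). For astaxanthin Prl, Oxt and Cga were higher and Trh lower. Pomc was -0.70 in AX+ME, -0.58 in AX and -1.12 in ME, at column 88, and Trh was -1.30 in AX+ME, -1.91 in AX and -1.63 in ME, at column 108. The part of these cell types in the values of the cell cycle genes was not tested.

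The promoters of the genes that stood highest in SED are shown because E2F and cell cycle motifs in them are what is known to time such genes. At an unadjusted p under 0.05 and lower than SED in all 3 comparisons, with the probe at column 70 or higher, were 5 genes: Dtl, Pcna, Mcm4, Cdt1 and Birc5. Mki67 is added as the usual marker of proliferation. Sequences are RefSeq promoter windows of mouse build GRCm38.p6, from 250 bases before to 50 after the start of the gene, 5′ to 3′ on the strand of the gene, and 33 of the 40 genes matched. Capitals mark the letters TTTNNCGC (an E2F motif), TTNGAA (the cell cycle homology region, CHR) and CCAAT, on either strand, where N is any base.
Dtl, chr1:191575495-191575794, minus strand: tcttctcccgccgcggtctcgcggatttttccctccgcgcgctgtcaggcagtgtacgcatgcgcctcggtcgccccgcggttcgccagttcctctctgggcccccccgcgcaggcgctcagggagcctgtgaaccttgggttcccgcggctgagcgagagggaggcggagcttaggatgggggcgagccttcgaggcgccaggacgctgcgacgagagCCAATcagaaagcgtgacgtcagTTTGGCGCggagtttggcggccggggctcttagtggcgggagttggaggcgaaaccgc
Cdt1, chr8:122567765-122568064, plus strand: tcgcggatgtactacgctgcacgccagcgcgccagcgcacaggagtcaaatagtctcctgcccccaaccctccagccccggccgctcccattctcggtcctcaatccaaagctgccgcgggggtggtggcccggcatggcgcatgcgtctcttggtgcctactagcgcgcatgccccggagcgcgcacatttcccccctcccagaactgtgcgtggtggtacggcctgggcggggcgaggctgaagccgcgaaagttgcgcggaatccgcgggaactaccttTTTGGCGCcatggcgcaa
Pcna, chr2:132253131-132253430, minus strand: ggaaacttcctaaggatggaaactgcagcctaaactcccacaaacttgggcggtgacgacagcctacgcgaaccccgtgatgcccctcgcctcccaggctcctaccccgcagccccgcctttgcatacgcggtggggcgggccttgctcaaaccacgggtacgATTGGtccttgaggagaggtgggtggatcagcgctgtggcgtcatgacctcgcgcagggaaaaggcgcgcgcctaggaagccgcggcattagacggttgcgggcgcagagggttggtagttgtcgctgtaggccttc
Birc5, chr11:117848987-117849286, plus strand: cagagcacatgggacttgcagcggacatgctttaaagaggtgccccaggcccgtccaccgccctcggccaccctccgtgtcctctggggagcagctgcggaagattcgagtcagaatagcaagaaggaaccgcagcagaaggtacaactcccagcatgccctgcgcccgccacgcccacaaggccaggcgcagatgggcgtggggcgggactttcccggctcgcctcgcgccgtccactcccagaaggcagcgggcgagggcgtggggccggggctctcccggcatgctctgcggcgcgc
Mki67, chr7:135716330-135716629, minus strand: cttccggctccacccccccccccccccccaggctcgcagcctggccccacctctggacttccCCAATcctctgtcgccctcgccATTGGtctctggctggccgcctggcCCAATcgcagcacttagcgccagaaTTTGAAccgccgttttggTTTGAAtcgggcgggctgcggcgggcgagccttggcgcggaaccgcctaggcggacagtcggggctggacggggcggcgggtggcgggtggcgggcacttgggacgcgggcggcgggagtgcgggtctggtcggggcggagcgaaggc
Dtl and Cdt1 each held 1 match to the E2F letters, Dtl and Pcna 1 CCAAT each, Mki67 2 matches to TTNGAA and 3 to CCAAT, and Birc5 none of the 3. Mcm4 was not among the matched genes, nor were Gins1, Gins2, Ccna2, Aurkb, Kif20a and Tpx2.

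Over all genes of each list the windows differed in these letters. The E2F letters were in 9 of 15 S phase genes (60%) and 1 of 18 mitosis genes (5.56%), beside 5.93% of 27025 genes with a window. TTNGAA was in 3 of 15 S phase genes (20%) and 13 of 18 mitosis genes (72.2%), beside 43.8% of all genes, and CCAAT in 11 of 15 (73.3%) and 15 of 18 (83.3%), beside 41.1%. A match is a description of the letters and not a bound site, and the windows come from another build than the arrays' own mm9 design.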

How the data were processed

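Hippocampal RNA of 4 groups of mice was read on 8 Agilent SurePrint G3 arrays of 1 slide, 1 dye per array. RNA was extracted with RNeasy Mini columns and labelled with the Low Input Quick Amp two-colour kit, per the labels' protocols. The deposited values are linear intensities, which the authors made with version 11.0.1.1 of Agilent Feature Extraction (named in the submitters' processing notes), with background subtraction and spatial and multiplicative detrending per the file headers. The deposited value list holds the same intensities rounded, within 0.5. The array design refers to mouse build mm9.

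Processed signals of the sample's own dye were scaled to the 75th percentile of the 59305 non-control spots of each array, floored at 0.005 and put on the log2 scale. Spots of a probe were averaged, with non-uniform spots left out. A probe entered the test where 1 or more groups had it well above background on both of their arrays, and the brightest probe stood for a gene. Of 55633 probes, 26557 matched a RefSeq symbol by accession, 37415 passed the filter and 27171 genes or unnamed transcripts were tested with limma 3.58.1 in R 4.3.3, with group and dye as terms, 3 residual degrees of freedom and Benjamini-Hochberg adjustment. The fit was tested on simulated data. A bound such as "at least 1.57-fold" sets the mean of the brighter group against, per array, the higher of the dim probe's own signal and the lowest signal well above background. Intensities have no count depth, so the signal over background limits what can be read.

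Replicate 1 is Cy3 and replicate 2 is Cy5 in every group, so the replicate number is the dye and is in the model as a block. Samples of the same dye deviated together, with correlations of 0.104 to 0.238. On the slide each group lies in 1 column of arrays, so slide position and group cannot be told apart. Each sample's values are given for 8 genes named by role, for genes that passed a test, and for the gene of each list with the smallest p among those that differed by 1.2-fold or more in 1 direction in each dye. Those of Mcm4, Cdt1, Birc5, Cdc45, Tyms and Kif20a were added after their values were seen. From the other lists, the genes that passed are named. Members and lists were chosen with earlier results of these data known. Mean signals were not used: the planned normexp background correction ran on median signals instead. Alternatives were other scalings, background corrections, filters, probe rules, floors, dye terms and samples left out.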

Additional observations from a re-analysis of the deposited data

Results flagged for a closer look

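By the interaction term of the limma fit, the difference of Dtl with running was not the same on the placebo and astaxanthin diets. The interaction of Dtl was 0.917 on the log2 scale (adjusted p = 0.0472): with running, Dtl was 0.19 higher in AX+ME than in AX and 0.72 lower in ME than in SED (differences of 0.19 and -0.72). Dtl lay at 0.107 to 0.125 in AX+ME, AX and ME and at 0.195 and 0.198 in SED. The interaction thus rests on the same SED samples as the differences from SED and is not separate evidence. At the same size, the adjusted p was 0.108 in the fit of spots from column 70 and 0.0534 with the mean of each gene's probes. With 2 samples in each group, no sample could be checked for lying far from the others of its group.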

How the results depend on the processing

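Leaving out 1 sample at a time, 0 to 9 of the 34 genes were called in AX+ME and in AX against SED, 0 to 8 in ME, 0 to 6 for astaxanthin, 0 to 5 for running, 0 to 7 for the interaction and 0 to 0 in AX+ME against ME and against AX, where limma called none of the 34 in any of these fits. A group left with 1 sample is assumed to vary like the others. Over these fits the S phase median was -0.21 to -0.11 in AX+ME, -0.17 to -0.075 in AX and -0.18 to -0.070 in ME against SED, -0.065 to 0.046 in AX+ME against ME, -0.037 to 0.049 against AX, -0.13 to -0.060 for astaxanthin, -0.089 to -0.042 for running and 0.048 to 0.21 for the interaction. The mitosis median was -0.089 to 0.039 in AX+ME, -0.15 to -0.069 in AX and -0.16 to -0.053 in ME against SED, -0.0034 to 0.082 in AX+ME against ME, 0.028 to 0.10 against AX, -0.033 to 0.027 for astaxanthin, -0.085 to -0.012 for running and 0.080 to 0.22 for the interaction.

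With the normexp background correction, 9 genes were called in AX+ME against SED (Birc5, Cdk1, Dtl, E2f1, Gins1, Mcm4, Mcm6, Pcna and Rrm1) and 9 in AX (Birc5, Cdk1, Cdt1, Dtl, E2f1, Gins1, Mcm4, Pcna and Rrm1), 1 for astaxanthin and 0 for running. The calls over all features were then 1697 higher and 3848 lower in AX+ME, against 1030 and 884 in the reported fit, and 1341 and 2488 in AX, against 583 and 388, and the median of all features moved to -0.13 in AX+ME, -0.14 in AX and -0.15 in ME. Kif23 was not called there, at 0.38 in AX+ME, 0.30 in AX and 0.30 in ME. Medians under normexp were -0.26 for S phase in AX, -0.19, -0.25 and -0.17 for mitosis in AX+ME, AX and ME, 0.034 in AX+ME against AX and -0.0086 against ME, -0.15 (S phase) and -0.089 (mitosis) for astaxanthin, and -0.074 for running. Quantile normalization called 1 gene for astaxanthin and 0 for running, with mitosis medians of -0.14 in AX+ME against SED, 0.028 against AX, -0.021 against ME and -0.11 for astaxanthin, and an S phase median of -0.073 in AX+ME against ME, which was -0.055 with median centring. From column 70 on, 0 genes were called in the 3 comparisons with SED, for running, for astaxanthin and for the interaction, with medians of -0.19 (S phase in AX), -0.038 (mitosis, AX+ME against ME), -0.064 (mitosis, running) and -0.063 (mitosis, astaxanthin). There Cdc6 turned round, to 0.074 in AX+ME against SED and 0.043 against AX, since it was read at its other probe.

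With no filter, 1 gene was called for astaxanthin and 0 for running, the mitosis medians were -0.068 in AX, -0.033 in ME and -0.0073 for running, and Cdk1, then read at column 28, turned to 0.79 in AX+ME, 0.54 in AX and 0.30 for astaxanthin. With probes read on all 8 arrays, 1 was called for astaxanthin and 0 for running, and the mitosis medians were 0.037 in AX+ME against AX and -0.064 for running. With the mean of a gene's probes, 0 were called for the interaction, and the mitosis medians were -0.0066 in AX, 0.0075 in ME and 0.031 for running. A floor of 0.01, chosen after seeing the data, called 1 for astaxanthin and 0 for running. Without the replicate block (the dye term), 0 were called for running, 3 in AX+ME, 2 in AX and 3 in ME against SED, and Cdc6 was lost (adjusted p = 0.479). Over all 27171 features the calls were 728 higher and 283 lower in AX+ME, 511 and 161 in AX, and 503 and 169 in ME. The causes of the other changes were not tested.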
